A study of Mus musculus with 19 samples.

Results

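The expression state of CD8 T cells that lacked T-bet and carried a constitutively active Stat5 (Stat5ca) was described after transfer into mice, against naive CD8 T cells. The members were taken from the labels alone: 3 arrays of transferred T-BetKO Stat5ca cells (replicates 39, 40 and 41) and 4 arrays of naive cells (replicates 33, 34, 35 and 36), which are 7 of the 19 arrays of the series. All 19938 genes that could be assigned to a probe set were compared. The naive cells were purified peripheral CD8 T cells of TCRP1A transgenic Rag-1-/- mice on the B10.D2 background. Mice of this kind carry a transgenic T-cell receptor and make no other B or T cells. The T-BetKO cells are labelled with genotype T-BetKO, strain C57BL/6 and genetic background B10.D2. They were stimulated with antibodies to CD3 and CD28, received Stat5ca after a day, were kept in culture to 72 h and were injected into congenic hosts. Cells were recovered from spleen and lymph nodes on day 14 (replicates 39 and 40) or day 54 (replicate 41). The series text calls these cells TCRP1A, whereas their own labels do not name that receptor. The sources used here do not give the ages of the mice or the promoter that drives Stat5ca. The T-BetKO and naive arrays also carry different wording for the labelling protocol, so genotype, strain, culture, Stat5ca, transfer and labelling cannot be told apart in this comparison.

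The 2 other transferred groups were compared directly with the T-BetKO cells, and all groups of the series, also 2 groups of cells at 72 h, lent their spread to the fit. Both held TCRP1A transgenic Rag-1-/- CD8 T cells on B10.D2, activated with their antigen for 72 h. One group of 4 arrays carried Stat5ca and was recovered on day 20, and the other, with no Stat5ca, was recovered on day 18 (1 array) and day 120 (1 array). Nothing in the labels says that arrays of a group came from separate mice or cultures, so a p-value here speaks only to array-to-array spread, which may be technical.

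Stat5 is the transcription factor that the interleukin-2 and interleukin-15 receptors switch on. It drives survival, growth and granzyme genes in CD8 T cells, and an active form does so without cytokine. T-bet, encoded by Tbx21, is the lineage factor of type 1 immunity: it promotes interferon-gamma and killer-cell genes and holds back Gata3 and the type 2 cytokine genes. Eomes is a related T-box factor with partly shared targets.

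Values are log2 probe-set levels, so a difference of 1 is a doubling. A level of 7.32, the 95th percentile of 1194 olfactory and vomeronasal receptor genes, which T cells do not use, served as a guide to background. Where 1 group of a comparison had a mean under it, the difference from the guide is given beside the measured one, as a lower bound on the size. A gene was called where the Benjamini-Hochberg adjusted p of a limma fit to all 19 arrays lay under 0.05. Of all genes, 22.5% were called: 1952 (9.79%) were higher and 2528 (12.7%) lower in the T-BetKO Stat5ca cells. A call with at least a 2-fold difference held for 642 higher genes (3.22%) and 224 lower genes (1.12%), 4.34% of all together. The arrays of the groups did not overlap for 22.6% of all genes, and 17.4% were also called. The median difference over all genes was -0.05.

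The arrays within each group were not alike. Across 12797 genes the SD of the difference between arrays was 0.177 for replicates 39 and 40 of day 14, and 0.54 and 0.529 between these and replicate 41 of day 54. In the naive group it was 0.185 between replicates 34 and 36, 0.315 between 33 and 35, and 0.563 to 0.666 between these pairs. The mean level of 20 myeloid marker genes was 11.15 and 11.01 in naive replicates 34 and 36 against 7.59 and 8.27 in replicates 33 and 35. It was 11.65, 11.61 and 10.16 in T-BetKO replicates 39, 40 and 41. The RNA integrity number was 9, 9, 8 and 9 in the naive samples and 7, 6 and 8 in the T-BetKO samples. In bulk RNA of this kind, fewer cells of a type and less RNA per cell cannot be told apart. The number of called genes was 2645 without T-BetKO replicate 39, 2858 without replicate 40 and 5736 without replicate 41.

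T-cell markers read high in all arrays of both groups. Myeloid markers were also high in naive replicates 34 and 36 (11.15 and 11.01) and in the T-BetKO arrays (11.65, 11.61 and 10.16). In those arrays myeloid marker RNA was thus read beside T-cell RNA. The myeloid mean was lower in naive replicates 33 and 35, at 7.59 and 8.27. Cd8b1, a chain of the CD8 co-receptor, read 13.67, 13.5, 13.64 and 13.43 in the naive arrays and 12.96, 12.81 and 13.33 in the T-BetKO arrays. Of 13 measured T-cell identity genes, 7 were lower and 1 higher, with a median difference of -0.44. The higher member, Cd5, was not called without naive replicate 33, 34 or 36 or T-BetKO replicate 39 or 41 (adjusted p = 0.0616 to 0.151). Cd247, the zeta chain of the receptor complex, was lower by the most among them (-1.06 ± 0.16, SE, limma adjusted p = 0.000174). Cd8a differed by -0.75 ± 0.15 (adjusted p = 0.00225). With day 54 alone neither Cd247 (-0.64, adjusted p = 0.067) nor Cd8a (-0.21, adjusted p = 0.511) was called, and Cd8a was not called with RNA integrity in the fit (-0.44, adjusted p = 0.255) or with the groups compared alone (adjusted p = 0.0651). As to the arrays, the mean of the list was lowest in the day 14 arrays (11.86 and 11.74) and 12.29 on day 54. Without replicate 39, as without replicate 40, 3 of these genes were lower.

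The targeted gene was not above its naive level. Tbx21 read 8.1, 8.63, 8.63 and 8.81 in the naive arrays and 8.18, 8.19 and 8.34 in the T-BetKO arrays. The groups overlapped, and the difference of -0.31 ± 0.13 was not called (limma adjusted p = 0.101). Without naive replicate 33 it was -0.45 and called (adjusted p = 0.00375). In the transferred cells with intact T-bet, Tbx21 was far higher, at 11.77 to 11.97 with Stat5ca and 11.01 to 11.24 without it. The T-BetKO cells differed from the Stat5ca cells by -3.6 ± 0.13 (adjusted p = 5.08e-11) and from the transferred control cells by -2.89 (adjusted p = 7.38e-09). Where the probes lie relative to the deleted part of the gene is not given in the sources used here.

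Of the genes that encode Stat5 itself, Stat5a read 10.43, 10.21, 10.62 and 10.29 in naive cells and 10.86, 10.89 and 11.06 in T-BetKO Stat5ca cells. All 3 T-BetKO arrays lay above the naive ones, with a difference of 0.55 ± 0.11 (limma adjusted p = 0.0017). Stat5a was 0.75 lower than in the transferred Stat5ca cells with T-bet (adjusted p = 0.00033). Stat5b, the paralog, was lower than in naive cells by 0.53 ± 0.11 (adjusted p = 0.00209).

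Genes downstream of Stat5 were raised as a group. Of 26 measured STAT5 targets and feedback genes, 18 were higher and 0 lower, with a median difference of 1.14, against 9.79% of all genes higher. Under the alternatives tried, apart from the 2-fold minimum, 14 to 18 were higher. The list holds feedback inhibitors, cytokine receptor chains, survival and growth genes and costimulatory receptors.

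To show what these members carry near their start sites, windows with the Stat5 core motif TTCNNNGAA were read from RefSeq promoters (GRCm38.p6), 250 bases before to 50 bases after each annotated start. The motif reads the same on both strands. The 4 sequences below belong to the list members that rose and held at least 1 match. Each is 30 bases of the plus strand, 5′ to 3′, with the motif in capitals. The Tnfrsf9, Tnfrsf18 and Foxp3 windows lie upstream of the start, and the Cish window holds the first transcribed bases.
Cish, chr9:107296654-107296683: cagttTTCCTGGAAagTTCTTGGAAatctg
Tnfrsf18, chr4:156026212-156026241: ctgctctacacTTCACAGAAggcctttaca
Tnfrsf9, chr4:150927852-150927881: gcaacagctgaTTCCAAGAAacccttcaga
Foxp3, chrX:7580333-7580362: agagctctgttTTCCAAGAAcgggcattag

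The motif began 136 bases before the start of Tnfrsf9, 99 before Tnfrsf18 and 139 before Foxp3. Cish held 2 matches. Of the 18 members that rose, 14 had a promoter in the table and 4 of these held the motif, and of all 26 members 21 had one and 6 held the motif. Over all genes with a promoter in the table, 9.55% held it, as did 8.3% of the 32851 promoters. A match of these letters is a description and not a binding site.

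Cish, a feedback inhibitor of cytokine receptor signalling, read 8.43, 8.02, 8.89 and 8.68 in naive cells and 11.85, 11.79 and 12.08 in T-BetKO Stat5ca cells. The groups lay far apart and the 3 T-BetKO arrays were close together, including day 54. The difference was 3.4 ± 0.17, or 10.5-fold (limma adjusted p = 1.31e-09). Il2ra, the high-affinity chain of the interleukin-2 receptor, read 8.41, 8.13, 9.65 and 8.04 in naive cells and 13.02, 12.88 and 13.02 in T-BetKO cells. Naive replicate 35 was the highest of its group, still well below every T-BetKO array. Il2ra differed by 4.42 ± 0.29, or 21.4-fold (adjusted p = 6.46e-08). Il2rb, the signalling chain shared with the interleukin-15 receptor, differed by 1.61 ± 0.09 (adjusted p = 7.12e-09). Socs2, a further feedback inhibitor, differed by 3.04 ± 0.33 (adjusted p = 9.73e-06).

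Against Stat5ca cells with T-bet, 4 of the 26 list members were higher and 5 lower, beside 7.03% and 13.8% of all genes. Neither Cish nor Il2ra was called against that group. Cish differed from that group by -0.14 ± 0.17 (limma adjusted p = 0.629) and Il2ra by 0.72 ± 0.29 (adjusted p = 0.0926). Against the transferred control cells 3.4% of all genes were called, 2.43% higher and 0.973% lower, and of the 26 list members 12 were higher and 1 lower. The 678 calls of that comparison became 408 without T-BetKO replicate 39, 438 without replicate 40, 1293 without replicate 41, 360 without the day 18 control array and 331 without the day 120 one. Cish was 2.65 higher (adjusted p = 5.51e-07) and Il2ra 3.71 higher (adjusted p = 1.14e-05). Other members of the list that rose over naive cells included Dusp5, a phosphatase of ERK (2.18), Pim1, a survival kinase (1.78), and Cdk6, a cell-cycle kinase (1.77). Lrrc32, which encodes the docking receptor for latent TGF-beta, is not on the list and rose by 3.84 ± 0.12 (adjusted p = 3.85e-12).

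**Figure D1:**
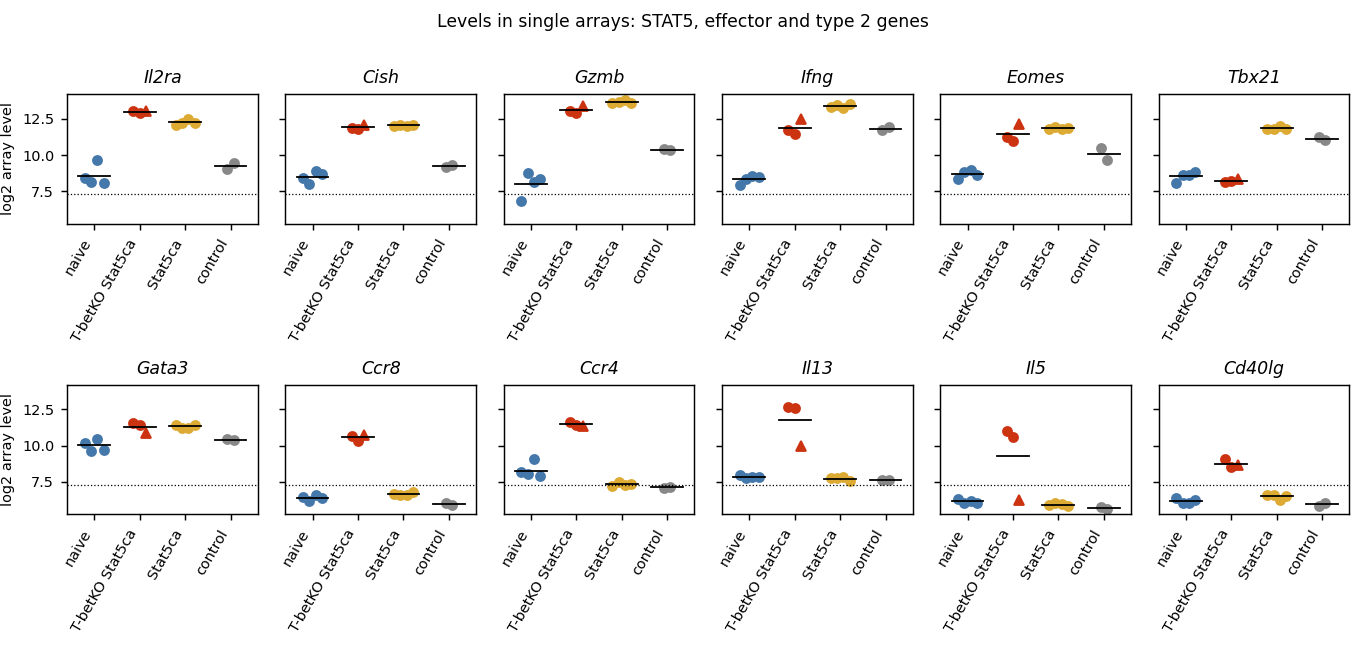
Log2 levels of the members that the results turn on, one point per array, in naive, T-BetKO Stat5ca and the other transferred groups; the y axis is the deposited log2 level, lines are group means, triangles mark day 54 and the dotted line the background guide. Cish and Gzmb lie high on all 3 T-BetKO arrays, Tbx21 lies at 8.18 to 8.34, near the naive level, and Il13 and Il5 are higher on the day 14 arrays than on day 54.

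Cytotoxic genes rose in part. Of 24 measured genes of cytotoxic granules and death ligands, 9 were higher and 0 lower (median difference 0.31). Gzmb, the granzyme that cleaves caspases in target cells, had the largest rise of all genes named here. It read 6.86, 8.75, 8.13 and 8.37 in naive cells and 13.03, 12.9 and 13.38 in T-BetKO Stat5ca cells. No array came near the other group, and the difference was 5.07 ± 0.30, or 33.7-fold (limma adjusted p = 1.47e-08). Against Stat5ca cells with T-bet, Gzmb differed by -0.55 ± 0.3 (adjusted p = 0.216). Fasl, the death ligand, rose by 2.92 ± 0.34 (2.83 from the guide) and Gzma, a tryptase granzyme, by 2.24 ± 0.34 over naive cells. Without T-BetKO replicate 39, 5 of the 24 were higher.

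Prf1, the pore-forming perforin, was not among the genes that rose. It read 10.1, 9.98, 10.23 and 9.96 in naive cells and 9.14, 8.94 and 10.33 in T-BetKO cells. The day 14 arrays lay below every naive array and the day 54 array above them, and the difference of -0.60 ± 0.24 was not called (limma adjusted p = 0.0846). Without replicate 41 it was -1.03 and called (adjusted p = 0.00013). Gzmm, a granzyme of killer cells, read 7.84 to 8.09 in naive and 7.97 to 8.2 in T-BetKO cells (difference 0.17 ± 0.13, adjusted p = 0.388).

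Type 1 genes also rose without T-bet. Of 20 measured type 1 factors, cytokines and receptors, 12 were higher and 1 lower (median difference 0.73). The lower member, Stat4, a signal carrier of interleukin-12, was not called without T-BetKO replicate 39 (-0.51, limma adjusted p = 0.0525) or 40 (-0.44, adjusted p = 0.0683). Ifng, the cytokine interferon-gamma, read 7.92, 8.38, 8.57 and 8.47 in naive cells and 11.71, 11.48 and 12.48 in T-BetKO Stat5ca cells. Every T-BetKO array was above every naive array, and the day 54 array was the highest. The difference was 3.56 ± 0.29, or 11.8-fold (limma adjusted p = 6.52e-07). Eomes read 8.34, 8.84, 8.98 and 8.63 in naive cells and 11.28, 10.98 and 12.12 in T-BetKO cells. Its difference was 2.76 ± 0.40 (adjusted p = 0.000137), and against Stat5ca cells with T-bet it was -0.38 ± 0.4 (adjusted p = 0.558). Il12rb2, the inducible chain of the interleukin-12 receptor, rose by 2.1 ± 0.23 over naive cells. Cxcr3, a chemokine receptor that T-bet is known to induce, rose by 1.10 ± 0.21, and by 1.67 with day 54 alone.

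Of 19 measured genes of terminal effector differentiation, 13 were higher and 0 lower (median difference 1.25). Bhlhe40, a transcription factor of cytokine-producing T cells, rose by 3.29 ± 0.37 and Irf4, a factor induced by receptor signalling, by 3.03 ± 0.22. Prdm1, which encodes Blimp-1, rose by 1.86 ± 0.33 and was not called with day 54 alone (1.59, limma adjusted p = 0.0803). The classical surface marker of terminal effectors, Klrg1, read 6.76, 8.26, 8.02 and 7.77 in naive and 8.25, 8.06 and 7.7 in T-BetKO cells. The groups overlapped (limma adjusted p = 0.595). S1pr5, a T-bet target that lets cells leave tissue, read 8.14, 8.15 and 8.07 in T-BetKO cells, within the naive range of 7.84 to 8.95.

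Set directly against Stat5ca cells with T-bet, many of these genes were lower. In that comparison 20.8% of all genes were called, 7.03% higher and 13.8% lower in T-BetKO cells. The count of 4155 called genes was 2614 without T-BetKO replicate 39 and 1790 without replicate 40. Of the 24 cytotoxic genes 9 were lower and 2 higher, of the 20 type 1 genes 8 were lower and 2 higher, and of 20 killer-cell receptor genes 8 were lower and 0 higher. Gzmm differed by -2.92 ± 0.13 (limma adjusted p = 8.98e-10), and Klrg1 differed by -2.51 ± 0.35 (adjusted p = 0.00024). S1pr5 differed by -2.3, Cxcr3 by -1.87, Prf1 by -1.53 and Ifng by -1.5 (adjusted p at most 0.00237 for each). Klra5, an inhibitory Ly49 receptor of natural killer cells, read 7.85, 6.81 and 6.35 in T-BetKO cells and 10.85 to 11.76 in Stat5ca cells with T-bet. Its measured difference was -4.19 ± 0.27 (adjusted p = 7.77e-08), or -3.87 from the guide, which the T-BetKO mean lay under, and the day 54 array had the lowest level. Fasl differed by -1.45 (adjusted p = 0.00714), and by -1.1 without T-BetKO replicate 40 (adjusted p = 0.0627). These groups differ in strain label, way of activation, day and labelling wording as well as in T-bet. Of 13 T-cell identity genes, 5 were lower and 1 higher than in Stat5ca cells with T-bet. The mean of the myeloid markers was 11.65, 11.61 and 10.16 in the T-BetKO arrays and 9.12 to 10.03 in those cells. The RNA integrity number was 7, 6 and 8 against 8 or 9. The part of other cells and of RNA quality in the lower genes was not tested.

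**Figure D2:**
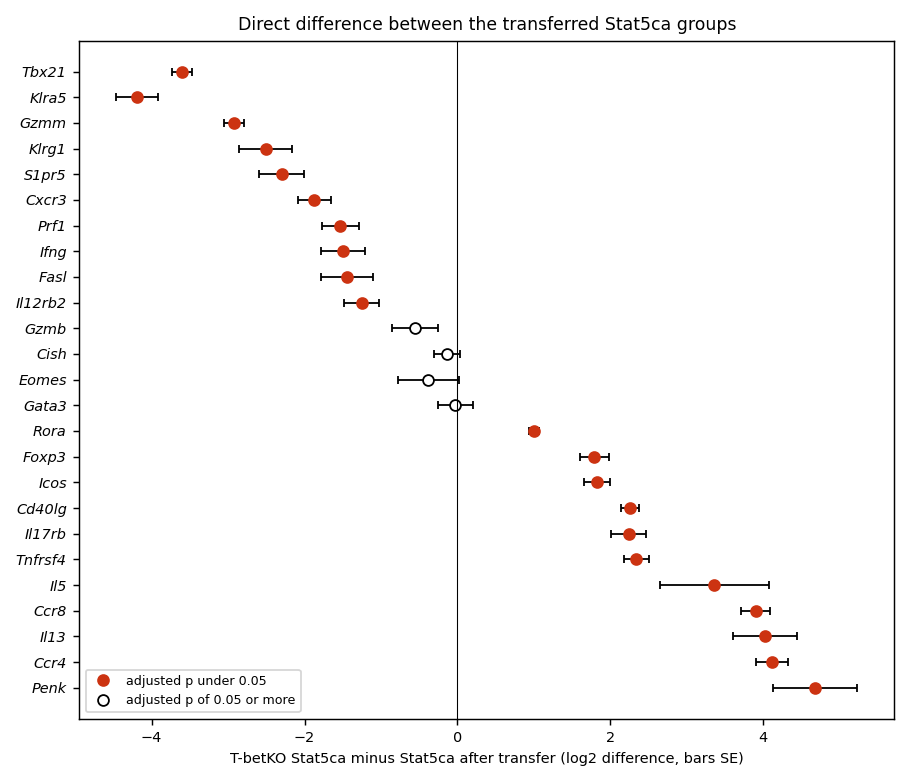
Direct difference between transferred T-BetKO Stat5ca cells (3 arrays) and transferred Stat5ca cells with T-bet (4 arrays), as log2 difference with bars of 1 SE; filled points have an adjusted p under 0.05. Tbx21, Klra5, Gzmm and Klrg1 lie to the left (lower without T-bet), Penk, Ccr4, Il13 and Ccr8 to the right, and Cish, Gzmb, Eomes and Gata3 are open points.

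Type 2 genes, the programme that T-bet is known to hold back, were widely higher. Of 15 measured type 2 genes, 12 were higher and 1 lower than in naive cells, with a median difference of 1.94. Their mean level was 7.9 to 8.11 in the naive arrays, 10.32 and 10.18 on day 14 and 9.15 on day 54. It was 8.13 to 8.28 in Stat5ca cells with T-bet. Directly against that group 9 of the 15 were higher and 1 lower. Over naive cells 10 were higher when the fit held the myeloid level as a term, and 6 when it held the RNA integrity number or used day 54 alone.

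Among the cytokines, Il13, which acts on epithelium and macrophages, read 7.98, 7.75, 7.81 and 7.81 in naive cells and 12.69, 12.61 and 9.96 in T-BetKO Stat5ca cells. All 3 arrays lay above naive, with day 14 far above day 54. The difference was 3.92 ± 0.42, or 15.1-fold (limma adjusted p = 9.81e-06), and 2.12 with day 54 alone. Il5, the eosinophil growth factor, read 6.34, 6.04, 6.18 and 6.06 in naive cells and 10.99, 10.63 and 6.26 in T-BetKO cells. The day 54 array lay within the naive range and both day 14 arrays far above it. The called difference was 3.14 ± 0.71 (adjusted p = 0.00428), or 1.97 from the background guide. It was not called with RNA integrity in the fit (1.53, adjusted p = 0.395) or the groups compared alone (adjusted p = 0.0936), and was 0.1 with day 54 alone (adjusted p = 0.841). Il4, the cytokine that sustains type 2 differentiation, read 7.06 to 7.13 in naive cells and 8.86, 8.53 and 7.44 in T-BetKO cells. It differed by 1.19 ± 0.21 (adjusted p = 0.000678), or 0.96 from the guide, and was not called with day 54 alone (0.36, adjusted p = 0.0694) or with RNA integrity in the fit (0.74, adjusted p = 0.128). Il10, a cytokine that limits inflammation, read 5.17 to 5.68 in naive cells and 8.69, 8.38 and 6.16 in T-BetKO cells, where the day 54 array was below the background guide. The mean of the myeloid markers was likewise higher on day 14 (11.65 and 11.61) than on day 54 (10.16), as was Cpa3 of mast cells and basophils (10.75 and 10.36 against 10.02). The part of such cells in the cytokine levels was not tested.

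The chemokine receptors of type 2 and regulatory T cells were as high on day 54 as on day 14. Ccr8 read 6.43, 6.19, 6.57 and 6.36 in naive cells, under the background guide, and 10.66, 10.29 and 10.76 in T-BetKO Stat5ca cells. The difference was 4.18 ± 0.19, or 18.1-fold (limma adjusted p = 8.26e-10), and 3.25 when the naive level was set to the guide. Ccr4 read 8.17, 8.02, 9.06 and 7.89 in naive cells and 11.59, 11.4 and 11.38 in T-BetKO cells, a difference of 3.18 ± 0.21 (adjusted p = 5.17e-08). Stat5ca cells with T-bet read 6.57 to 6.82 for Ccr8 and 7.23 to 7.51 for Ccr4. From that group Ccr8 differed by 3.9 ± 0.19, or at least 3.25 from the guide, and Ccr4 by 4.11 ± 0.21 (adjusted p = 2.86e-09 for each).

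Gata3, the lineage factor of type 2 cells, rose over naive cells but was not called against Stat5ca cells with T-bet. It read 10.19, 9.63, 10.49 and 9.72 in naive cells and 11.58, 11.4 and 10.89 in T-BetKO cells, a difference of 1.28 ± 0.23 (limma adjusted p = 0.000713). Against the latter it differed by -0.03 ± 0.23 (adjusted p = 0.951). Over naive cells the call was lost when RNA integrity entered the fit (0.98, adjusted p = 0.0875) and with day 54 alone (0.88, adjusted p = 0.145). Nfil3, a factor that acts in type 2 cytokine expression, rose by 2.71 ± 0.27, and Il17rb, the receptor for interleukin-25, by 1.94 ± 0.23 (1.12 with day 54 alone). Stat6, which signals for interleukin-4, was the member that fell (-0.32 ± 0.08, adjusted p = 0.00959), and was not called with the myeloid level in the fit (adjusted p = 0.0764), without naive replicates 33 and 35 (adjusted p = 0.107), with array weights (adjusted p = 0.0511) or with the groups compared alone (adjusted p = 0.109). Penk, the precursor of enkephalin peptides, is not on the list and read 6.71 to 7.13 in naive cells and 12.34, 12.23 and 9.28 in T-BetKO cells. As with Il13, the day 14 arrays were the highest and day 54 lay between them and the naive arrays. The measured difference was 4.42 ± 0.55 (adjusted p = 3.66e-05), or 2.42 with day 54 alone, and at least 3.96 from the background guide.

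Of 15 measured type 17 genes, 7 were higher and 1 lower (median difference 0.25), and 6 were higher than in Stat5ca cells with T-bet. The members with the larger rises were transcription factors. Ahr, the aryl hydrocarbon receptor, rose by 2.58 ± 0.24 and Maf, a factor that also drives Il10, by 1.77 ± 0.37. Maf was 0.91 higher with the myeloid level in the fit and 1.01 higher without naive replicates 33 and 35, and was not called with RNA integrity in the fit (adjusted p = 0.148), with day 54 alone (0.94, adjusted p = 0.359) or with the groups compared alone (adjusted p = 0.0668). Rora, a retinoid-related orphan receptor, rose by 1.01 ± 0.07 (limma adjusted p = 1.36e-07). Il17a read 6.94 to 7.23 in naive cells, under the background guide, and 7.46 to 7.68 in T-BetKO cells, a difference of 0.45 ± 0.10 (adjusted p = 0.00463), or 0.26 from the guide. It was not called with RNA integrity in the fit (adjusted p = 0.121) or with day 54 alone (adjusted p = 0.0933). Stat3, the member that was lower (-0.27, adjusted p = 0.0425), was not called without naive replicate 33, 35 or 36 or T-BetKO replicate 39 or 40 (adjusted p = 0.0662 to 0.135).

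Genes more usual for helper and regulatory CD4 T cells were also higher. Cd40lg, the ligand by which helper cells act on B cells and dendritic cells, read 6.05 to 6.37 in naive cells and 9.07, 8.5 and 8.7 in T-BetKO Stat5ca cells. The measured difference was 2.57 ± 0.12 (limma adjusted p = 1.23e-09), and at least 1.44 from the background guide, which all naive arrays lay under. Foxp3, the lineage factor of regulatory T cells, read 8.32, 8.02, 8.11 and 8.09 in naive cells and 9.86, 9.52 and 10.71 in T-BetKO cells, with the day 54 array the highest. Its difference was 1.89 ± 0.19 (adjusted p = 4.15e-06). Stat5ca cells with T-bet read 6.27 to 6.6 for Cd40lg and 8.13 to 8.29 for Foxp3. Of the 6 marker genes of CD4 and regulatory T cells, 3 were higher, and 5 without T-BetKO replicate 41. Their mean level was 9.17, 9.04 and 9.02 in the T-BetKO arrays and 8.02 to 8.12 in transferred Stat5ca cells with T-bet. In Stat5ca cells with T-bet at 72 h it was 9.12 and 8.92, so a high mean was not particular to T-BetKO cells. Cd4 itself read 7.48, 8.8, 8.27 and 8.72 in naive cells and 9.26, 9.44 and 8.27 in T-BetKO cells (0.67 ± 0.28, adjusted p = 0.0958). It was called without naive replicate 34 (0.83, adjusted p = 0.0433) and without T-BetKO replicate 41 (1.03, adjusted p = 0.00638). The part of other T cells in these results was not tested.

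Costimulatory receptors rose in 9 of 13 measured cases and fell in 3 (median difference 1.03). Icos, a receptor of the CD28 family, read 9.97, 9.86, 10.36 and 9.68 in naive cells and 12.14, 12.11 and 12.21 in T-BetKO cells. The difference was 2.18 ± 0.17 (limma adjusted p = 2.27e-07), and 1.82 ± 0.17 against Stat5ca cells with T-bet. Tnfrsf4, which encodes OX40, rose by 2.08 ± 0.16 and was 2.34 ± 0.16 higher than in Stat5ca cells with T-bet. Tnfrsf18, which encodes GITR, rose by 1.62 ± 0.12 but differed from those cells by 0.16 ± 0.12 (adjusted p = 0.418). The receptors that fell were Cd27 (-1.31 ± 0.23), Cd226 (-1.14 ± 0.18) and Tnfrsf14 (-0.38 ± 0.09). With day 54 alone Cd27 was -0.58 (adjusted p = 0.174) and Cd226 -0.6 (adjusted p = 0.111), and neither was called. Cd27 was also not called with RNA integrity in the fit (-0.98, adjusted p = 0.0852), nor Tnfrsf14 without naive replicates 33 and 35 (-0.34, adjusted p = 0.0542) or with the groups compared alone (adjusted p = 0.0737).

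Of 16 measured inhibitory receptors and exhaustion genes, 11 were higher and 2 lower (median difference 1.68). The largest rises were in the nuclear receptors that receptor signalling induces, Nr4a2 (3.2 ± 0.35), Nr4a3 (3.17 ± 0.29) and Nr4a1 (2.7 ± 0.39). Tigit, a receptor for poliovirus receptor family ligands, rose by 2.66 ± 0.27 and Ctla4, which competes with CD28, by 2.40 ± 0.24. Pdcd1, which encodes PD-1, read 7.58, 7.21, 7.92 and 7.65 in naive cells and 8.89, 8.91 and 9.38 in T-BetKO cells. All 3 T-BetKO arrays were higher (1.47 ± 0.31, limma adjusted p = 0.00248), and the call was lost with RNA integrity in the fit (1.39, adjusted p = 0.0891). Tox, the factor that sustains exhaustion in chronic infection, went the other way (-0.95 ± 0.23, adjusted p = 0.00709), and was not called without T-BetKO replicate 39 (-0.82, adjusted p = 0.0501) or replicate 40 (-0.70, adjusted p = 0.0593). Btla, the other member that was lower, differed by -0.56 (adjusted p = 0.00979) and by -0.36 without replicate 40 (adjusted p = 0.0765).

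**Figure D3:**
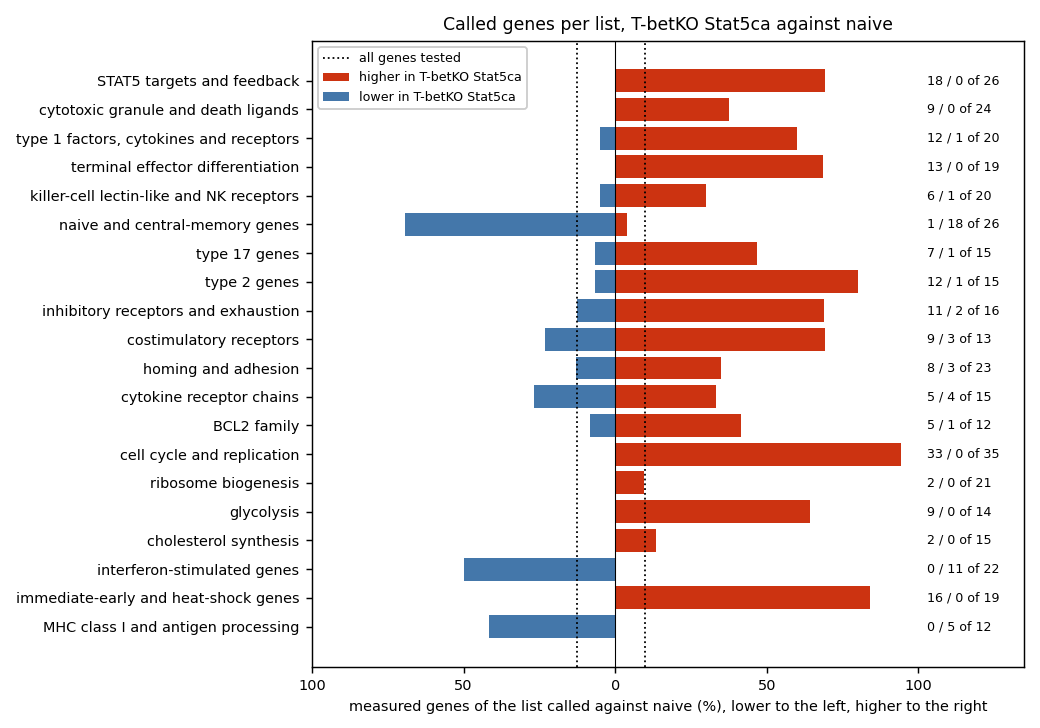
Share of the measured genes of each list that were called higher (right) or lower (left) in T-BetKO Stat5ca cells than in naive cells, in percent, with the counts beside each bar; dotted lines mark the shares over all genes, 9.79% higher and 12.7% lower. Bars for cell cycle, immediate-early and type 2 genes reach farthest right, and the bar for naive and central-memory genes reaches farthest left.

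The genes of naive and central-memory cells fell. Of 26 measured, 18 were lower and 1 higher (median difference -0.68), against 12.7% of all genes lower. Under the alternatives tried, apart from the 2-fold minimum, 8 to 19 were lower. Lef1, a transcription factor of naive T cells, read 12.58, 12.23, 12.61 and 12.32 in naive cells and 10.06, 9.95 and 10.1 in T-BetKO Stat5ca cells. The 3 T-BetKO arrays lay within a narrow band far below naive, including day 54 (-2.4 ± 0.11, limma adjusted p = 7.35e-10). Il6st, the shared chain of interleukin-6 family receptors, differed by -1.94 ± 0.14, and Bach2, a repressor that keeps T cells undifferentiated, by -1.42 ± 0.18 (-0.85 with day 54 alone). Cd28 was the member that rose (1.52 ± 0.14).

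Some members were not called. Ccr7, the receptor that brings T cells into lymph nodes, read 13.39, 13.06, 13.46 and 13.12 in naive cells and 12.93, 12.84 and 13.38 in T-BetKO cells. The groups overlapped and the difference of -0.21 ± 0.15 was not called (limma adjusted p = 0.372). Klf2, a factor that maintains trafficking genes, differed by 0.12 ± 0.18 (adjusted p = 0.683). Among homing genes, 8 of 23 were higher and 3 lower, beside 9.79% of all genes higher and 12.7% lower. The count of 3 lower genes was near that share. Ccr9, the gut-homing receptor, read 12.52, 11.93, 12.64 and 11.83 in naive cells and 10.05, 9.85 and 8.36 in T-BetKO cells (-2.81 ± 0.41, adjusted p = 0.000163). Cd44, the adhesion receptor of antigen-experienced cells, rose by 2.23 ± 0.37, by 1.43 with the myeloid level in the fit and by 1.38 without naive replicates 33 and 35.

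Among the cytokine receptor chains 5 of 15 rose and 4 fell, beside 9.79% of all genes higher and 12.7% lower. Il9r, the interleukin-9 receptor, rose by 0.98 ± 0.13, while Il27ra, the interleukin-27 receptor, fell (-1.1 ± 0.15, and -0.7 with day 54 alone). Of 12 measured BCL2 family genes, 5 rose and 1 fell. Those that rose included both the pro-apoptotic Bcl2l11, which encodes Bim (1.35 ± 0.21), and the anti-apoptotic Bcl2l1, which encodes Bcl-xL (1.23 ± 0.25). The member that fell was Bmf (-0.63 ± 0.12), another pro-apoptotic gene.

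Other large falls were in transporters and in a gene of lymphocyte development. Slc6a19, a neutral amino acid transporter, read 11.6, 11.11, 11.44 and 10.9 in naive cells and 7.37, 7.08 and 8.09 in T-BetKO cells. The difference was -3.75 ± 0.24 (limma adjusted p = 3.69e-08). Slc16a5, a monocarboxylate transporter, differed by -3.73 ± 0.29 (-3.49 from the background guide). Dntt, the terminal transferase that adds bases at receptor joints, differed by -2.92 ± 0.51 (adjusted p = 0.000645). Its T-BetKO arrays were under the guide (-2.19 from it), and it was not called with RNA integrity in the fit (-2.45, adjusted p = 0.065).

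Interferon-stimulated genes were lower. Of 22 measured, 11 were lower and 0 higher (median difference -0.67). Ifit1, an RNA-binding antiviral protein, read 11.39, 10.96, 12.04 and 10.86 in naive cells and 9.05, 8.64 and 8.75 in T-BetKO Stat5ca cells. Naive replicate 35 was the highest, and all naive arrays lay above all T-BetKO arrays (-2.5 ± 0.23, limma adjusted p = 2.01e-06). Against Stat5ca cells with T-bet Ifit1 differed by -0.47 ± 0.23 (adjusted p = 0.155). Usp18, which turns off interferon receptor signalling, differed by -2.03 ± 0.29 from naive cells. Oas2, a sensor of double-stranded RNA, differed by -1.37 (adjusted p = 0.0167). Without T-BetKO replicate 41 it was -0.66 (adjusted p = 0.05), and without naive replicate 35 it was -1.2 (adjusted p = 0.051). Of 12 measured MHC class I and antigen processing genes, 5 were lower and 0 higher (median difference -0.24). H2-T24, a nonclassical class I gene, was the lowest of them (-1.7 ± 0.21). It was also called lower than in Stat5ca cells with T-bet and in transferred control cells. With the groups compared alone neither call held (-0.77, limma adjusted p = 0.0552, and -1.73, adjusted p = 0.141). The strain label differs in each of these comparisons, and its part was not tested. Without T-BetKO replicate 40, 3 of the 12 genes were lower than in naive cells.

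Cell-cycle genes were higher as a list but not separated from all naive arrays by much. Of 35 measured, 33 were higher and 0 lower (median difference 1.22). The mean of the list was 7.95, 9.37, 8.34 and 9.32 in the naive arrays and 10.22, 10.07 and 9.74 in T-BetKO arrays. Naive replicates 34 and 36, the arrays with the high myeloid markers, were also the higher naive arrays here. Mki67, which encodes the proliferation antigen Ki-67, read 7.07, 10.94, 8.22 and 11 in naive cells and 11.79, 11.69 and 11.47 in T-BetKO cells (2.34 ± 0.67, limma adjusted p = 0.0181). Without naive replicate 35 the difference was 1.98 (adjusted p = 0.0572), without T-BetKO replicate 39 it was 2.27 (adjusted p = 0.0685) and without T-BetKO replicate 40 it was 2.32 (adjusted p = 0.06). Of the 35, 20 were higher without T-BetKO replicate 39, 20 with the myeloid level in the fit and 17 without naive replicates 33 and 35. With RNA integrity in the fit 1 was higher, and with day 54 alone 2 were. The part of other cells and of RNA quality in the rise was not tested further.

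Of 14 measured glycolysis genes, 9 were higher and 0 lower (median difference 0.52), and 5 were higher without T-BetKO replicate 39. Pfkp, a phosphofructokinase, rose by 1.02 ± 0.10, and Slc2a1, the glucose transporter GLUT1, by 0.87 ± 0.18, which was not called with RNA integrity in the fit (0.79, limma adjusted p = 0.0903). Of 21 ribosome biogenesis genes 2 rose, 4 without naive replicate 35 and 1 without T-BetKO replicate 39. Of 15 cholesterol synthesis genes 2 rose, and 1 without T-BetKO replicate 39. Both counts of 2 lay near the share of all genes that were higher, 9.79%. Against Stat5ca cells with T-bet, 11 of the 21 ribosome biogenesis genes were lower and 0 higher, beside 13.8% of all genes lower. Immediate-early and heat-shock genes were higher in 16 of 19 measured cases (median difference 1.23), and in 4 with RNA integrity in the fit or with day 54 alone. Fosb, an AP-1 subunit, rose by 2.76 ± 0.33, and Atf3, a stress-induced factor, by 3.69 ± 0.39. The mean of the immediate-early and heat-shock list was 11.96, 11.87 and 11.22 in T-BetKO arrays and 10.05 to 10.53 in naive arrays. It was 10.71 to 11.41 in Stat5ca cells with T-bet and 11.21 and 11.29 in transferred control cells. A mean above naive was therefore not particular to T-BetKO cells. Against the control cells 0 of the 19 were called, beside 3.4% of all genes. The RNA integrity number was lowest in the day 14 arrays, and its part in the rise of this list was not tested further.

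Markers of other cells moved with the arrays. Of 20 myeloid genes 5 were called higher, with a median difference of 1.92, and in all 20 the arrays of the groups overlapped. C1qa, a complement gene of tissue macrophages, read 7.58, 11.63, 8.24 and 11.51 in naive cells and 12.97, 12.77 and 10.81 in T-BetKO cells. Naive replicates 34 and 36 lay above the day 54 array, so the order of the groups depends on the arrays (2.44, limma adjusted p = 0.0388; 1.72 and adjusted p = 0.125 without naive replicate 33; 1.94 and adjusted p = 0.111 without naive replicate 35). Without T-BetKO replicate 39 it was 2.05 (adjusted p = 0.175) and without replicate 40 it was 2.15 (adjusted p = 0.142). The count was 15 without naive replicate 34 or 36, 1 without naive replicate 33 or 35, 0 without T-BetKO replicate 39 or 40 and 11 without replicate 41. Without naive replicates 34 and 36, 17 of the 20 were higher, and without naive replicates 33 and 35, 0 were higher and 2 lower. The list mean was 9.12 to 10.03 in Stat5ca cells with T-bet and 11.64 to 11.79 in transferred control cells. Of 13 measured B-cell and plasma-cell markers 2 were higher and 1 lower than in naive cells, near the shares of all genes, 9.79% and 12.7%. Against Stat5ca cells with T-bet 4 of the 13 were higher, beside 7.03% of all genes. The list mean was 7.05, 7.31, 7.08 and 7.36 in the naive arrays and 7.55, 7.59 and 7.21 in T-BetKO arrays. Cd22, an inhibitory co-receptor of B cells, was 1.06 ± 0.19 higher (adjusted p = 0.000724), and was not called with day 54 alone (0.68, adjusted p = 0.164) or with RNA integrity in the fit (0.79, adjusted p = 0.0947). Blnk, a B-cell adaptor that myeloid cells also use, was 1.27 higher (adjusted p = 0.0152), and was not called without naive replicate 33 (1, adjusted p = 0.051) or T-BetKO replicate 39 (0.96, adjusted p = 0.113) or 40 (1.04, adjusted p = 0.0928). The lower member, Blk, lost its call without naive replicate 33 or 35 or T-BetKO replicate 39 or 41 (adjusted p = 0.0562 to 0.134). Cd79a and Ms4a1, which define B cells, had means of 6.25 and 5.53 in T-BetKO cells, under the background guide. The mean of 10 neutrophil and mast cell markers was 6.95, 12.01, 7.71 and 11.88 in the naive arrays and 11.22, 10.91 and 9.18 in T-BetKO arrays. Of these 10, 1 was higher than in naive cells, near the 9.79% of all genes. This was Cpa3, the mast cell and basophil carboxypeptidase (2.33 ± 0.63, adjusted p = 0.0134), which was not called without T-BetKO replicate 39 (2.15, adjusted p = 0.066).

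**Figure D4:**
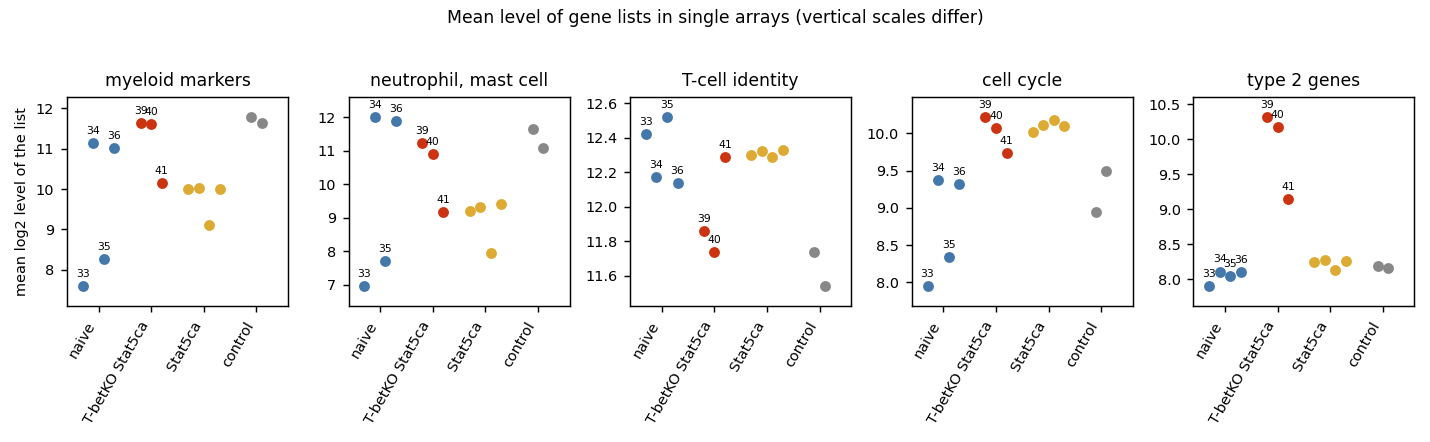
Mean log2 level of marker and programme gene lists, one point per array with its replicate number in the groups compared, by group; the y axis is the mean of the list's deposited log2 levels. Myeloid and neutrophil markers split the naive arrays into 34 and 36 (high) and 33 and 35 (low), and the T-BetKO day 14 arrays lie at 11.65 and 11.61 for the myeloid list.

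The largest fall was in a class II gene. H2-Ea, the alpha chain of I-E, read 11.01, 13.29, 12.41 and 13.1 in naive cells and 6.51, 6.55 and 6.97 in T-BetKO Stat5ca cells. All T-BetKO arrays were under the background guide, and with that guide as their level the difference was -5.13. In the other transferred groups it was 12.91 to 13.08 with Stat5ca and 13.52 to 13.6 without. C57BL/6 mice are known not to express this gene, whereas B10.D2 mice do. The gene is used by antigen-presenting cells, and its naive level was highest in replicates 34 and 36, which also had the high myeloid markers. Whether strain or other cells account for the difference was not tested. H2-Ab1, a chain of I-A that both strains express, was 2.22 higher than in naive cells (limma adjusted p = 0.00301). Within the naive group it was higher in replicates 34 and 36, at 12.36 and 11.9, than in replicates 33 and 35, at 9.47 and 10.17, and the T-BetKO arrays read 13.44, 13.3 and 12.85. The difference was 1.16 with the myeloid level in the fit, and the call was lost with RNA integrity in the fit (adjusted p = 0.0717), with day 54 alone (adjusted p = 0.182) and with the groups compared alone (adjusted p = 0.0749).

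The receptor segments differed as well. All 7 measured alpha- and beta-chain segments were called, against 22.5% of all genes: 5 were higher in T-BetKO cells and 2 lower. They were taken up after their values were seen, so they are a description. Trbv1, a beta-chain segment, read 8.9, 8.57, 8.38 and 8.61 in naive cells and 10.32, 10.24 and 10.98 in T-BetKO cells. It read 8.41 to 8.55 in Stat5ca cells with T-bet. Trav7n-5, an alpha-chain segment, read 6.09, 5.72, 6.28 and 5.4 in naive cells and 8.84, 7.9 and 9.97 in T-BetKO cells. Trav14-1 went the other way, at 10.11, 10, 10.88 and 9.76 in naive cells and 7.66, 7.4 and 7.7 in T-BetKO cells. Its mean was also below the naive arrays in the other transferred groups, which are TCRP1A cells. It was 8.88 in Stat5ca cells with T-bet and 7.82 in control cells, so a low level is not particular to T-BetKO cells. T cells of a receptor transgenic Rag-1-/- mouse carry a single receptor, and the labels do not name the TCRP1A receptor for the T-BetKO cells.

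The day 54 array stood apart from the day 14 arrays, which is a description with 1 array on day 54 of genes chosen after their values were seen. Between the mean of the day 14 arrays and replicate 41, 918 genes differed by at least 1 on the log2 scale, 149 were at least 2 higher on day 14 and 7 at least 2 lower. Between the 2 day 14 arrays 4 genes differed by at least 1. The gene with the largest difference was Kcnma1, a potassium channel, at 14.16 and 14.09 on day 14 and 6.14 on day 54. Naive cells read 13.93 to 14.03 for it, so here it was the day 54 array that lay far from the naive arrays. Genes of eosinophils and of macrophages under type 2 cytokines were also higher on day 14. Rnase2a, an eosinophil ribonuclease, read 12.34 and 12.24 on day 14 and 4.56 on day 54, with 4.79 to 5 in naive cells. Retnla, a marker of alternatively activated macrophages, read 12.67 and 12.52 against 6.92, and Arg1, arginase of the same cells, 11.5 and 11.46 against 6.82. Ccl24, an eosinophil-attracting chemokine, read 12.64 and 12.71 on day 14 and 7.91 on day 54, with 7.15 to 7.46 in naive cells. Mcpt1, a mucosal mast cell protease, read 10.47 and 9.92 against 5.41.

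Genes lower on day 14 than on day 54 included killer-cell receptors. Klrc2, an activating receptor of the NKG2 family, read 8.11 and 8 on day 14 and 10.44 on day 54, against 6.74 to 7.52 in naive cells and a mean of 10.95 in Stat5ca cells with T-bet. The naive mean of Klrc2 lay under the background guide, with 6.75 and 6.74 in replicates 33 and 35, so its rise from the guide is smaller than measured. The measured Klrc2 difference from naive cells was 1.73 (limma adjusted p = 0.0092) and 0.93 without replicate 41 (adjusted p = 0.0199). It was not called with array weights (0.96, adjusted p = 0.053), without naive replicates 33 and 35 (1.34, adjusted p = 0.113) or with the groups compared alone (adjusted p = 0.101). Klrd1, its CD94 partner, read 10.07, 9.81 and 11.44 against 11.11, 11.13, 11.61 and 11.08 in naive cells. It differed from naive cells by -0.8 (adjusted p = 0.0449) and by -1.3 without replicate 41 (adjusted p = 2.96e-05). The call was lost without any of the other arrays of these groups, at adjusted p = 0.0505 to 0.257. Xist, the RNA of the inactive X chromosome, read 12.25 and 12.26 on day 14, 6.48 on day 54 and 12.65 to 12.82 in naive cells. Eif2s3y, a gene of the Y chromosome, read 9.24 and 8.72 on day 14, 10.72 on day 54 and 5.08, 4.75, 7.87 and 4.96 in naive cells.

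**Figure D5:**
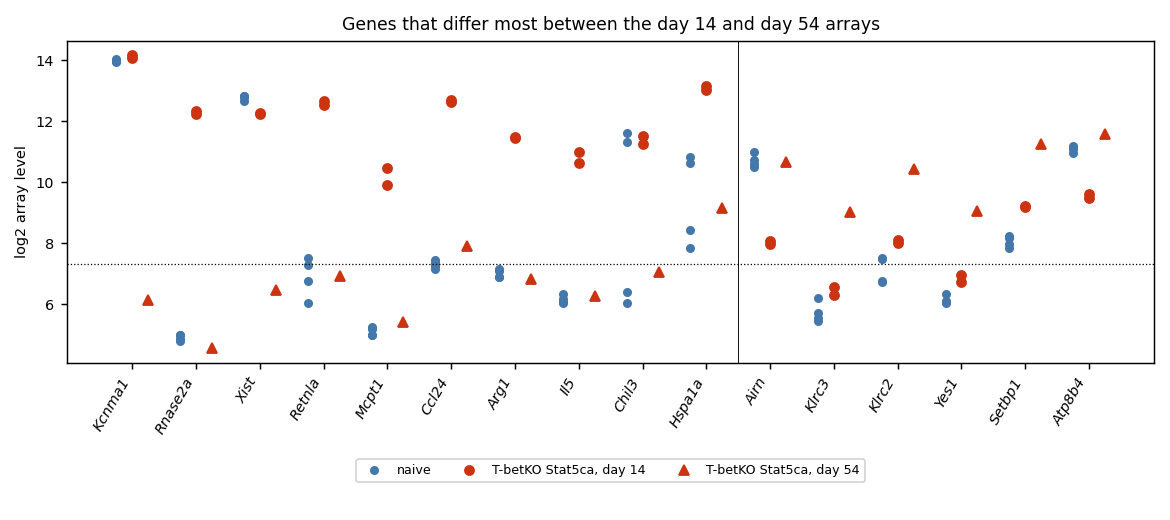
Log2 levels of genes that differ most between the day 14 arrays (replicates 39 and 40) and the day 54 array (replicate 41) of T-BetKO Stat5ca cells, beside the naive arrays; the y axis is the log2 level, triangles mark day 54 and the dotted line the background guide. Rnase2a, Retnla, Ccl24, Il5 and Mcpt1 are high on day 14 and near the naive arrays on day 54.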

How the data were processed

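RNA of purified CD8 T cells (0.125 µg per sample) was measured on 19 Affymetrix arrays. The deposited values are log2 levels per probe set, made by the authors with Affymetrix Expression Console, per the submitters' processing notes; for the summarization and normalization, the method is not given in the sources used here. Array medians over all probe sets were 7.69 to 7.89, and the number of arrays limits the precision. Of 35557 probe sets, 21789 name 1 gene, 1621 several and 12147 none; the brightest probe set stood for each of 19938 genes.

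All 19 arrays entered a fit of 6 group means with limma 3.58.1 (lmFit, eBayes; R 4.3.3), with Benjamini-Hochberg adjustment over all genes and a threshold of 0.05. Errors after ± are standard errors of that fit. The script was tested on simulated data. Named genes are the 15 largest rises and falls among called genes whose arrays do not overlap and whose higher mean exceeds the background guide, up to 4 called members of each list in each direction, the genes of T-bet, Eomes, Stat5 and CD3/CD8, and further genes picked after their values were seen. The members and lists were chosen with earlier results of these data known. Alternatives were the arrays fitted, normalization, probe-set summary, array weights, a 2-fold minimum, covariates for RNA integrity, myeloid level and Xist, and leaving out arrays. Tables used Python 3.11.15 with pandas 2.3.3 and numpy 2.4.6, and figures matplotlib 3.10.9.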

Additional observations from a re-analysis of the deposited data

Results flagged for a closer look

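In the 4 naive arrays a single array lay far from the other 3 for 10 genes and 2 list means. Chance marks about 1 in 20 groups in this way, and whether there were more than chance gives was not tested. Naive replicate 33 was the low one for Gzma (8.18), Bcl2l1 (8.1), Cpa3 (6.33) and Il10 (5.17), and for the mean of the type 1 list (9.46) and of the CD4 and regulatory T cell markers (7.76). Naive replicate 35 was high for Klrd1 (11.61), Pfkp (10.94) and Eif2s3y (7.87) and low for Il9 (6.9) and Ctla4 (8.72). Naive replicate 36 was low for Btla (9.79).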

How the results depend on the processing

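Against 4480 called (1952 higher, 2528 lower), a 2-fold minimum left 866 (642 and 224), a fit to the groups compared alone 1773 (768 and 1005), RNA integrity in the fit 1088 (523 and 565), the myeloid level in the fit 2585 (1175 and 1410), no naive replicates 33 and 35 2518 (1200 and 1318), and day 54 alone, without T-BetKO replicates 39 and 40, 1098 (640 and 458). Averaging replicates 39 and 40 as 1, chosen after seeing the data, gave 2701 (1161 and 1540). Leaving out 1 array gave 2645 to 5736 (1075 to 2751 higher, 1570 to 2985 lower). Quantile normalization gave 1935 higher and 2947 lower. Against Stat5ca cells with T-bet, leaving out 1 array gave 1790 to 5237. Against transferred control cells the count was 678, with 66 in the groups compared alone, 1195 with the myeloid covariate and 331 to 1293 without 1 array. With day 54 alone Klrd1 was 0.21, Epor -0.03, Prf1 0.26, Ccr7 0.13 and Cd4 -0.05, each of opposite sign. Klrg1 ranged from -0.01 (without naive replicate 33) to 0.49 without 1 array and was -0.01 without naive replicates 33 and 35, S1pr5 0.22 without naive replicates 34 and 36, and Klf2 -0.01 with the Xist covariate. The cause was not tested. Of 158 called genes named, 110 kept their call with the groups compared alone, 98 with the RNA integrity covariate, 98 with day 54 alone, 124 without naive replicates 33 and 35 and 129 with the myeloid covariate. No paired analysis was possible because the groups share no replicate numbers.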
